A study of Mus musculus with 15 samples.

Results

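Levels of 10 mRNAs encoded by the mouse mitochondrial genome were read from gene counts of 3T3-L1, a mouse preadipocyte line that hormones induce to become fat-storing cells. The 10 are mt-Nd1, mt-Nd2, mt-Nd4, mt-Nd5 and mt-Nd6 (complex I), mt-Cytb (complex III), mt-Co1, mt-Co2 and mt-Co3 (complex IV) and mt-Atp6 (ATP synthase). They were found by matching the Ensembl identifiers of the count files to mouse symbols, and they are 10 of 25700 genes. Of these, 7 had 18815 to 3731477 counts summed over the 15 libraries. The other 3 had almost none: 57 counts for mt-Co2, 52 for mt-Co3 and 73 for mt-Atp6. The statistical filter on low counts passed 8, which are the 7 and mt-Atp6. Counts of tests below are out of these 8 unless the 7 are named, and mt-Atp6 is named where a count includes it.

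The study asks how the transcriptome changes as 3T3-L1 cells differentiate and how it differs when MIGA2 is depleted or overexpressed. MIGA2 sits in the outer membrane of mitochondria. The 5 groups of 3 libraries were cells that by their label overexpress a MIGA2 fusion with green fluorescent protein at day 6 (MIGA2-GFP), cells labelled as depleted of MIGA2 at day 6 and at day 0 (MIGA2-KO), and wild-type cells at day 6 and at day 0 (WT). Every culture was held for 48 h at full confluence. At day 0 all lines received insulin at 1 µg/mL together with IBMX at 0.5 mM and dexamethasone at 1 µM, at day 2 insulin alone, and at day 4 medium with none of the agents. Day 6 cells were then harvested. The labels do not say which cells carry the MIGA2-GFP protein, which promoter drives it, or whether a line is 1 clone, and MIGA2-GFP cells at day 0 were not analysed here. They also do not say that the replicates were separate cultures. The p-values therefore measure the spread between these libraries, pooled over the 5 groups, which may be technical.

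Mitochondrial DNA is transcribed from both strands into long precursor RNAs by the polymerase POLRMT with the factors TFAM and TFB2M. Excision of the transfer RNAs that lie between the genes releases the mRNAs, which are then given poly(A) tails and are held or degraded by proteins such as LRPPRC, SLIRP and PNPT1. All products of the 10 mRNAs are subunits of the oxidative phosphorylation complexes, whose remaining subunits are encoded in the nucleus, and fat cells are known to expand their mitochondria as they differentiate. Most of the genes read in the same direction, whereas mt-Nd6 lies alone on the opposite strand. In GRCm38 coordinates mt-Nd5 occupies bases 11742 to 13565 of the forward strand of chromosome M and mt-Nd6 bases 13552 to 14070 of the reverse strand. Their annotated ends therefore overlap. The libraries were made with a strand-specific kit per the labels, but the strand setting of the counting was not given in the sources used here, so reads in that overlap cannot be assigned to a strand.

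Copies of mitochondrial DNA lie in the nuclear chromosomes, and a short read from a copied stretch can match more than 1 place. Every run of 50 bases of each mRNA was looked up, on both strands, among all GENCODE vM21 transcripts that lie outside chromosome M. The share of runs also found in a nuclear transcript was 100% for mt-Co2, 99.9% for mt-Co3 and 99.5% for mt-Atp6, the 3 mRNAs with almost no counts. It was 62.2% for mt-Nd4, 51.1% for mt-Co1, 8.19% for mt-Nd2 and 7.61% for mt-Nd5. No run of mt-Nd1, mt-Nd6 or mt-Cytb was found. Of the 10, the 3 mRNAs shared almost in full were those with almost no counts. Among the other 7 counts did not follow sharing. mt-Co1 had the most, 3731477, and mt-Nd6, with no shared run, had the fewest, 18815. How reads with several matching places were handled was not given in the sources used here, and counts of the copies were not analysed here. Of the mitochondrial mRNAs outside the list, mt-Nd3 and mt-Nd4l shared 98% and 98.8% of their runs and mt-Atp8 shared none, and all had almost no counts too. Only annotated transcripts were searched, so a copy in unannotated nuclear sequence would be missed. Whether mt-Atp8 has such a copy was not tested.

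**Figure D1:**
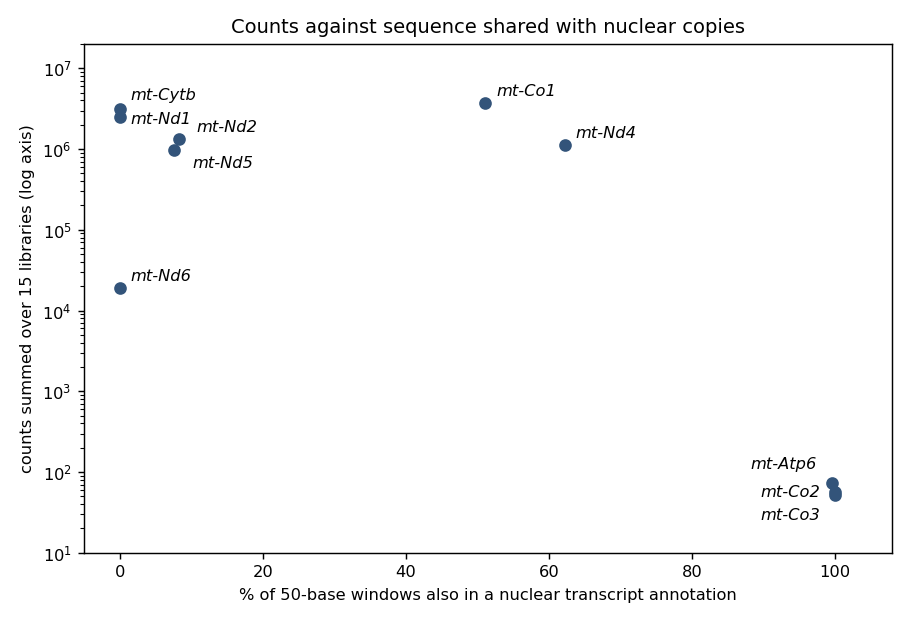
Counts summed over the 15 libraries (y axis, log scale) against the percentage of 50-base runs also present in an annotated nuclear transcript (x axis), 1 point for each of the 10 mRNAs. mt-Atp6, mt-Co2 and mt-Co3 sit together at the lower right with 52 to 73 counts, and the other 7 have at least 18815 counts.

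Stretches of 90 bases, written 5′ to 3′, show the kinds of copy. The first pair shows a copy without a difference, for an mRNA with almost no counts. The first 90 bases of mt-Atp6 (GRCm38 chrM:7927-8016, forward strand) and those of the unprocessed pseudogene Gm10925 (chr1:24614562-24614651, reverse strand) are identical, so no letter is in capitals. The copy matches 678 of the 681 bases of the gene.
mt-Atp6: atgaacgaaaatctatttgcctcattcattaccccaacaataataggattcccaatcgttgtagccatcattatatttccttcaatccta
Gm10925: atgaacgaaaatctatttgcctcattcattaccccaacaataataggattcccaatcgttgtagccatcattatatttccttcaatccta

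mt-Cytb, the mRNA that differed most between MIGA2-KO and WT at day 6, has a full-length nuclear copy that is far less alike. Bases 2 to 91 of mt-Cytb (chrM:14146-14235, forward strand) are set beside the matching bases of the processed pseudogene Gm11410 (chr4:80003990-80004079, forward strand), and capitals mark the 5 positions that differ. The copy as a whole was 92.91% identical, and no run of 50 bases was shared.
mt-Cytb: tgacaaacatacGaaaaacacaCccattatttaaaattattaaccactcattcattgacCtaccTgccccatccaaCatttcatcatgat
Gm11410: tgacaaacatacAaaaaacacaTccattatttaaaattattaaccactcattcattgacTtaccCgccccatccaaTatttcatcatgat

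For mt-Nd4 and mt-Co1 a nuclear copy on chromosome 1 ends or begins inside the gene, and 502 of 1329 runs of mt-Nd4 and 731 of 1496 runs of mt-Co1 were not shared. The first stretch below is bases 832 to 921 of mt-Nd4 (chrM:10998-11087, forward strand), with capitals from the base after the 876 bases that match Gm28439 without a mismatch. The second is bases 1018 to 1107 of mt-Co1 (chrM:6345-6434, forward strand), with capitals before the start of the 483 bases that match Gm29216 at 99.79%. The capitals lie outside that copy only, since all of mt-Co1 is also matched less closely, by Gm13340 at 97.61%.
mt-Nd4: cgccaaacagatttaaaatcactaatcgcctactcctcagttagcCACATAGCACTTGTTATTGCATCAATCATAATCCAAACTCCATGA
mt-Co1: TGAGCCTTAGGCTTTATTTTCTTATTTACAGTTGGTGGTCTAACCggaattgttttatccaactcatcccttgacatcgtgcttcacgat

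Several facts of the whole series bear on the values. Library totals ran from 10748668 to 13443736 counts in 4 of the groups and from 19625147 to 26003871 in WT at day 0, the deepest group. Adipocyte markers summed to 30300 to 32270 CPM (counts scaled by the TMM-adjusted library total, the usual unit of depth-normalised level) in MIGA2-GFP. The sums at day 6 were 10190 to 15800 CPM for MIGA2-KO and 44830 to 60160 CPM for WT, whereas at day 0 they were 1182 to 1213 CPM for MIGA2-KO and 719.5 to 830.9 CPM for WT, with no overlap between the days or, at day 6, between the lines. Preadipocyte markers summed to 5867 to 6176 CPM in MIGA2-GFP, 10910 to 18700 CPM in MIGA2-KO and 5330 to 5794 CPM in WT at day 6. Markers of macrophages summed to 14.28 to 28.76 CPM and those of endothelium to 0.6093 to 3.111 CPM, with Ptprc at 0 in every library. Skeletal muscle markers summed to 13 to 84.96 CPM, with Myod1 at 0 in every library. The library labelled MIGA2-KO day 6 replicate 1 went against its label, with 925.2 CPM of Miga2 mRNA beside 74.45 and 69.99 CPM in the other MIGA2-KO libraries at day 6, 155.4 to 165.5 CPM in MIGA2-GFP and 145.2 to 181.7 CPM in WT at day 6. Miga2 mRNA was not called in MIGA2-GFP against WT, at a log2 fold change of -0.02, so the counts do not bear out the label of overexpression either, and whether reads of the fused transcript enter the Miga2 count was not tested. At day 0 Miga2 did not separate the lines, with 17.17 to 22.54 CPM in MIGA2-KO and 13.62 to 17.74 CPM in WT. Replicate 1 of WT also stood apart from the other pair of libraries at each day, and the WT libraries deviated with transcript length and GC content. Correlations of the deviations across 12253 genes ran from -0.09 to 0.07 with length and -0.11 to 0.09 with GC in MIGA2-GFP and MIGA2-KO, against -0.56 to 0.47 and -0.54 to 0.37 in WT. WT replicate 1 deviated in opposite directions between the days. It was at -0.56 with length and 0.37 with GC at day 0, and at 0.43 and -0.45 at day 6. WT day 0 replicate 3, which was kept throughout that setting, was at 0.47 with length and -0.54 with GC. All 10 mitochondrial mRNAs are short and poor in GC, within the lowest 17.1% of genes by length and the lowest 5.7% by GC. Results are therefore given with and without replicate 1 of MIGA2-KO at day 6 and of WT at both days, the 3 libraries that stood apart. These 3 were picked for standing apart in these same counts, so leaving them out narrows the spread that the test uses. Calls gained in that setting are therefore no added evidence of a difference.

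Mitochondrial mRNAs took a larger part of the library at day 6 than at day 0 in both lines. The 10 together made up 8.131, 8.251 and 8.284% of counts in MIGA2-GFP at day 6. They made up 8.784, 7.735 and 7.729% in MIGA2-KO and 12.55, 8.068 and 7.062% in WT at day 6. At day 0 they made up 4.759, 4.771 and 4.685% in MIGA2-KO and 2.072, 2.946 and 3.442% in WT. The groups at day 6 overlapped one another, every day 6 library lay above every day 0 library, and every MIGA2-KO library lay above every WT library at day 0. As means the shares were 8.22 ± 0.0801% in MIGA2-GFP, 8.08 ± 0.608% in MIGA2-KO and 9.23 ± 2.92% in WT at day 6, against 4.74 ± 0.0465% in MIGA2-KO and 2.82 ± 0.694% in WT at day 0 (SD, n = 3 each). The log2 ratio of day 6 to day 0 was 0.77 in MIGA2-KO and 1.71 in WT, and the WT ratio was 1.24 without the 3 libraries that stood apart. In RNA from whole cultures, more mitochondria, more mitochondrial RNA in each and fewer other transcripts cannot be told apart.

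Per kilobase of mRNA, mt-Cytb was the most abundant of the 7 in MIGA2-GFP, at 22840 CPM per kb, followed by mt-Nd1 (15110) and mt-Co1 (13940). In MIGA2-KO at day 6 mt-Nd1 led with 21030 CPM per kb, before mt-Co1 with 17220 and mt-Cytb with 10400. In WT at day 6 mt-Cytb came first with 27360, then mt-Nd1 with 22460 and mt-Co1 with 18710. In MIGA2-KO at day 0 mt-Co1 (8497), mt-Nd1 (8379) and mt-Cytb (7486) stood close together, and in WT at day 0 mt-Cytb (5474) and mt-Co1 (5206) came before mt-Nd1 (3914). The first pair in WT at each day and in MIGA2-KO at day 0 differed by less than the spread between libraries. As group means mt-Nd2, mt-Nd4 and mt-Nd5 were lower in every group, between 1341 CPM per kb for mt-Nd5 in WT at day 0 and 9370 for mt-Nd2 in MIGA2-KO at day 6. In MIGA2-KO at day 6 mt-Cytb lay above mt-Nd2 per kb only through the library labelled replicate 1. Over its 1144 bases mt-Cytb had 15636 CPM there, against 10037 and 10005 CPM in replicates 2 and 3. Over its 1038 bases mt-Nd2 had 10151, 9680 and 9349 CPM. mt-Nd6, alone on its strand, was lowest in every group, with 227.1 in MIGA2-GFP, 173.3 in MIGA2-KO and 291.8 in WT at day 6, and 152 in MIGA2-KO and 93.11 in WT at day 0. These levels divide by the whole annotated length, although reads from the shared stretches of mt-Nd4 and mt-Co1 may not have been counted.

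Among the complex I mRNAs, mt-Nd1 encodes a membrane subunit next to the ubiquinone site. At day 6 it stood at 14436, 14608 and 14347 CPM in MIGA2-GFP, 20445, 20412 and 19506 in MIGA2-KO, and 25291, 19281 and 19916 in WT. At day 0 it stood at 7975, 8184 and 7896 CPM in MIGA2-KO and 3408, 3453 and 4378 in WT. From low to high the order was WT day 0, MIGA2-KO day 0, MIGA2-GFP, then MIGA2-KO and WT at day 6, and that last pair overlapped. mt-Nd2, another membrane-arm subunit, stood at 9259, 9342 and 9233 CPM in MIGA2-GFP, 10151, 9680 and 9349 in MIGA2-KO and 11122, 7081 and 7058 in WT at day 6. Its day 0 values were 6139, 6141 and 6096 CPM in MIGA2-KO and 1428, 1982 and 2249 in WT. WT at day 6 spanned both other day 6 groups through its replicate 1, and the day 0 groups were apart.

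mt-Nd4 and mt-Nd5 encode proton-pumping subunits at the far end of the membrane arm. mt-Nd4 stood at 7677, 7754 and 7929 CPM in MIGA2-GFP, 6098, 4977 and 4872 in MIGA2-KO and 11301, 10066 and 8021 in WT at day 6. At day 0 it stood at 4299, 4176 and 4066 CPM in MIGA2-KO and 2327, 2405 and 2555 in WT. No group overlapped another for mt-Nd4, and at day 6 the order was MIGA2-KO, MIGA2-GFP and WT from low to high. mt-Nd5 stood at 5141, 5184 and 5178 CPM in MIGA2-GFP, 4990, 5359 and 5362 in MIGA2-KO and 11511, 4443 and 3657 in WT at day 6. The day 0 values were 5595, 5646 and 5488 CPM in MIGA2-KO and 929.4, 3009 and 3398 in WT. Replicate 1 of WT was the highest library of all at day 6 and the lowest of all at day 0, while MIGA2-KO and MIGA2-GFP libraries stayed between 4990 and 5646 CPM.

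mt-Nd6 encodes a small membrane subunit of complex I and had the lowest CPM of the 7 in every library. It stood at 128.5, 131.5 and 93.64 CPM in MIGA2-GFP, 112.5, 75.93 and 81.39 in MIGA2-KO and 141.5, 170.0 and 142.9 in WT at day 6. At day 0 it stood at 72.20, 84.84 and 79.60 CPM in MIGA2-KO and 51.52, 60.82 and 32.63 in WT. WT was highest at day 6 and lowest at day 0 with no overlap, MIGA2-GFP overlapped MIGA2-KO at day 6, and MIGA2-KO at day 6 overlapped MIGA2-KO at day 0.

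mt-Co1 encodes the catalytic core subunit of complex IV. It stood at 21391, 21420 and 21821 CPM in MIGA2-GFP, 26207, 26868 and 26722 in MIGA2-KO and 43003, 23017 and 20703 in WT at day 6. Its day 0 levels were 13244, 13204 and 12934 CPM in MIGA2-KO and 8602 and 10142 in WT replicates 2 and 3, with 5385 in WT replicate 1. Every day 6 library lay above every day 0 library, and WT spanned both other groups at day 6. mt-Co2 and mt-Co3, the other core subunits of the complex, had 0 to 10 and 0 to 11 counts in a library.

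mt-Cytb encodes cytochrome b, the membrane core of complex III. It stood at 26081, 26194 and 26128 CPM in MIGA2-GFP, 15636, 10037 and 10005 in MIGA2-KO and 37771, 31359 and 24766 in WT at day 6. In day 0 cells it stood at 8608, 8574 and 8509 CPM in MIGA2-KO and 5636, 6427 and 6725 in WT. At day 6 the MIGA2-KO libraries lay below all MIGA2-GFP and WT libraries, which overlapped each other, and within MIGA2-KO the library labelled replicate 1 lay highest. mt-Atp6, a channel subunit of ATP synthase, had 0 to 12 counts in a library.

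**Figure D2:**
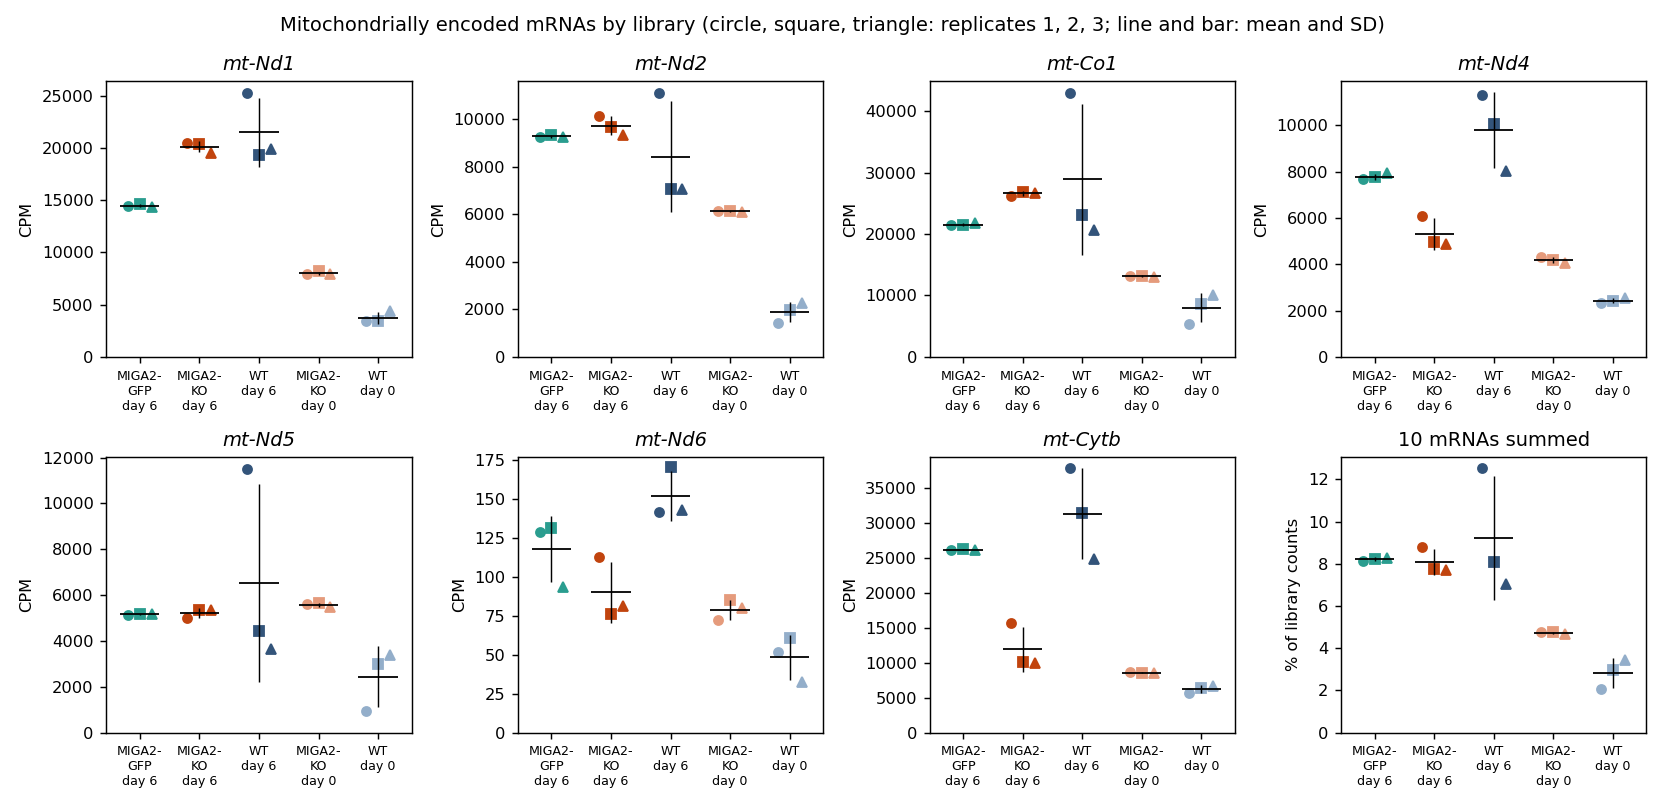
Levels of the 7 well-counted mRNAs in CPM and the share of library counts taken by all 10 (last panel), with 1 point per library, a horizontal line at the mean and a vertical bar of 1 SD for 3 libraries. MIGA2-KO libraries at day 6 lie lowest of the day 6 groups for mt-Cytb (10005 to 15636 CPM) and mt-Nd4 (4872 to 6098 CPM), and the WT points spread most widely for mt-Nd5.

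Over differentiation of WT cells, all 7 well-counted mRNAs rose, and no day 6 library overlapped a day 0 library for any of them. In edgeR's quasi-likelihood test with Benjamini-Hochberg adjustment over 12279 genes, adjusted p under 0.05 was met by 7 of the 7 in the upward direction. mt-Atp6 was called higher too, but it entered the test only through its day 6 libraries, so its call supports nothing. Over all genes 64.8% passed in this comparison and 31.7% passed upward, and 28.7% were higher with no overlap. Among the 7, mt-Nd1 changed most, with a log2 fold change of 2.52 ± 0.13 (SE, adjusted p = 5.47e-10, edgeR) and mt-Cytb followed with 2.32 ± 0.18 (adjusted p = 4.53e-08, edgeR). mt-Nd2, mt-Nd4 and mt-Co1 rose by 2.16 ± 0.18, 2.01 ± 0.13 and 1.85 ± 0.25, and mt-Nd6 by 1.65 ± 0.21. mt-Nd5 changed least, by 1.42 ± 0.42 (adjusted p = 0.00776, edgeR). The median over the 7 was 2.01, beside -0.04 over all genes tested. mt-Nd5 was not called without WT day 6 replicate 1 (0.73, adjusted p = 0.0693, edgeR) or when only the groups compared were fitted (1.42, adjusted p = 0.0654, edgeR). Without the 3 libraries that stood apart mt-Nd5 was at 0.34, mt-Co1 at 1.22 and the other 5 at 1.73 to 2.32, and all were called, in a fit in which 80.3% of all genes passed.

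The 3 mRNAs with few counts were also counted more often at day 6 in WT. mt-Co2 had 21 counts at day 6 and 1 at day 0, a ratio of 49.7 per scaled library total with an exact 95% counting interval of 8 to 2060. mt-Co3 had 16 counts at day 6 and 10 at day 0 (ratio 3.79, interval 1.62 to 9.34), and mt-Atp6 had 20 and 2 (ratio 23.7, interval 5.75 to 209). These intervals cover counting error only.

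Nuclear genes of the same machinery rose as well in WT, where 64.8% of all genes passed and 31.7% passed upward. Of the nuclear-encoded subunits, 36 of 36 for complex I were called higher at day 6 (median 1.69), 9 of 9 for complex III (2.44), 12 of 13 for complex IV (2.06) and 12 of 14 for ATP synthase (1.43). Among factors of mitochondrial DNA transcription and replication, 13 of 26 were higher and 4 lower. Polrmt, the mitochondrial RNA polymerase, rose by 1.43 ± 0.18 and Tefm, its elongation factor, by 1.41 ± 0.16, whereas Tfam, the factor that packages the DNA and starts transcription, was at 0.08 ± 0.12 (adjusted p = 0.55, edgeR), and with unscaled library totals at -0.31. Slirp rose by 1.08 ± 0.22, and its partner Lrpprc was at -0.11 ± 0.089. Of 10 regulators of mitochondrial biogenesis tested, 3 were higher, among them Ppargc1b by 3.28 ± 0.33, and 5 were lower, among them Ppargc1a at -2.02 ± 0.35. All 12 adipocyte markers rose in the same comparison.

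In MIGA2-KO cells 5 of the 7 mRNAs rose. Of 8 tested members, 5 were called higher and none lower, where 44.3% of all genes passed and 23.3% passed upward. mt-Nd1 rose by 1.33 ± 0.13 on the log2 scale (adjusted p = 8.59e-07, edgeR), mt-Co1 by 1.02 ± 0.25 and mt-Nd2 by 0.67 ± 0.18. mt-Cytb (0.47 ± 0.18, adjusted p = 0.0403, edgeR) and mt-Nd4 (0.35 ± 0.13, adjusted p = 0.0374, edgeR) passed narrowly. mt-Nd5 was at -0.09 ± 0.41 and mt-Nd6 at 0.19 ± 0.21, and neither passed. By CPM 5 of the 7 were higher at day 6 with no overlap, as were 33.5% of all genes, and mt-Nd5 was lower with none, as were 32.2%. Without replicate 1 of the libraries labelled MIGA2-KO day 6 the count was 3 of 8, where 39.8% of all genes passed, with mt-Cytb at 0.23 (adjusted p = 0.224, edgeR) and mt-Nd4 at 0.24 (adjusted p = 0.135, edgeR). mt-Nd4 was also lost with no filter on low counts (adjusted p = 0.0531, edgeR). The count was also 3 without any 1 of the MIGA2-KO day 0 libraries, where 36.8 to 36.9% of all genes passed. mt-Co2 had 11 counts at day 6 and 1 at day 0 (ratio 11.9, interval 1.72 to 511), mt-Co3 had 8 and 2 (4.31, interval 0.861 to 41.7) and mt-Atp6 had 13 and 5 (2.8, interval 0.938 to 10).

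The nuclear-encoded subunits were called higher at day 6 in MIGA2-KO for 21 of 36 of complex I (median 0.59), 8 of 9 of complex III (0.88), 11 of 13 of complex IV (0.92) and 7 of 14 of ATP synthase (0.59). Over all genes 44.3% passed and 23.3% passed upward. The median over the 7 mitochondrial mRNAs was 0.47, beside 0.02 over all genes tested. Tefm rose by 1.11 ± 0.17 and Tfam by 0.40 ± 0.12 (adjusted p = 0.013, edgeR), a call lost at adjusted p = 0.052 without MIGA2-KO day 0 replicate 2 and 0.0511 without MIGA2-KO day 6 replicate 2. Polrmt was at 0.06 ± 0.18. Without replicate 1 of the libraries labelled MIGA2-KO day 6, 17 of 36 complex I subunits and 6 of 14 ATP synthase subunits were called higher. In that fit 39.8% of all genes passed.

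The change over time differed between the lines when tested directly. In the edgeR interaction term, MIGA2-KO minus WT, 5 of 8 tested members were called lower and none higher, where 27.2% of all genes passed and 13.6% passed downward. mt-Cytb differed most, by -1.85 ± 0.25 on the log2 scale (adjusted p = 0.000103, edgeR), followed by mt-Nd4 (-1.67 ± 0.18), mt-Nd2 (-1.49 ± 0.25), mt-Nd6 (-1.46 ± 0.29) and mt-Nd1 (-1.19 ± 0.18). mt-Nd5 (-1.51 ± 0.58, adjusted p = 0.0664, edgeR) and mt-Co1 (-0.83 ± 0.34, adjusted p = 0.0874, edgeR) did not pass. mt-Nd5 passed with no filter on low counts (-1.48, adjusted p = 0.0483, edgeR), with GC and length correction (-1.45, adjusted p = 0.0423, edgeR) and with DESeq2 (-1.54, adjusted p = 0.0231), and mt-Co1 passed with DESeq2 (-0.86, adjusted p = 0.0436). When each of the 12 libraries was left out in turn the count stayed between 5 and 7, where 20.8 to 42.4% of all genes passed. Without the 3 libraries that stood apart, mt-Nd5 was at -0.40 (adjusted p = 0.00233, edgeR) and mt-Co1 at -0.19, and 62.2% of all genes passed. This term joins higher levels in MIGA2-KO at day 0 with lower levels of some members at day 6, which the next comparisons give separately.

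At day 0 all 7 mRNAs were higher in every MIGA2-KO library than in every WT library. The MIGA2-KO libraries at day 0 were much more alike than those of WT. Between pairs of libraries the chi-square per degree of freedom was 1.739 to 2.895 in MIGA2-KO and 21.15 to 133.7 in WT. The MIGA2-KO libraries may therefore not be separate observations. Of 8 tested members, 6 were called higher and none lower, where 33.9% of all genes passed and 16.1% passed upward, and 25.4% were higher with no overlap. mt-Nd2 differed most, by 1.70 ± 0.18 (adjusted p = 1.67e-05, edgeR), then mt-Nd5 by 1.19 ± 0.41, mt-Nd1 by 1.10 ± 0.13, mt-Nd4 by 0.78 ± 0.13, and mt-Nd6 and mt-Co1 by 0.71 ± 0.21 and 0.71 ± 0.24. mt-Cytb was at 0.45 ± 0.18 and did not pass (adjusted p = 0.0609, edgeR). The calls of mt-Co1 and mt-Nd5 were lost when any 1 of the MIGA2-KO day 0 libraries was left out, at adjusted p of 0.0796 to 0.0859 (edgeR), and also without WT day 0 replicate 1, with unscaled library totals (0.57 and 1.05, adjusted p = 0.101 and 0.0717, edgeR) and with the replicate block. mt-Nd5 was lost with only the groups compared (1.19, adjusted p = 0.0639, edgeR), and mt-Co1 without WT day 0 replicate 2 (0.76, adjusted p = 0.0608, edgeR). mt-Cytb passed with DESeq2 (adjusted p = 0.0261), with GC and length correction (adjusted p = 0.038, edgeR) and with only the groups compared (adjusted p = 0.0212, edgeR). Without MIGA2-KO day 0 replicate 2 the count was 3, where 22.9% of all genes passed, since mt-Nd6 was lost too (adjusted p = 0.0711, edgeR). Without the 3 libraries that stood apart, mt-Cytb passed as well (0.38, adjusted p = 0.000194, edgeR), in a fit in which 49.8% of all genes passed. Of the low-count mRNAs, mt-Co3 had 2 counts in MIGA2-KO and 10 in WT (ratio 0.395, interval 0.0421 to 1.86) and mt-Atp6 had 5 and 2 (4.94, interval 0.809 to 51.9). mt-Co2 had 1 count in each group.

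No nuclear-encoded subunit of complexes I, III and IV was called higher in MIGA2-KO at day 0. Over all genes 16.1% were called higher and 17.7% lower. For complex I, 16 of 36 were called lower (median -0.57), for complex III 2 of 9 (-0.43) and for complex IV 5 of 13 (-0.62). For ATP synthase 4 of 14 were lower and 1 higher. The median over the 7 mitochondrial mRNAs was 0.78, beside -0.03 over all genes tested. Without the 3 libraries that stood apart the complex I count was 21 of 36 with a median of -0.25, the complex III median was 0.05, and 1 subunit of complex III, 1 of complex IV and 4 of ATP synthase were called higher. In that fit 49.8% of all genes passed, beside 33.9% with all libraries. Among mitochondrial RNA processing and stability factors 5 of 21 were higher and 1 lower, led by Fastkd1 (0.64 ± 0.15) and Fastkd2 (0.63 ± 0.15), members of a family of mitochondrial RNA-binding proteins. Lrpprc was higher by 0.24 ± 0.089 (adjusted p = 0.0472, edgeR), a call lost when any 1 of the MIGA2-KO day 0 libraries was left out (adjusted p of 0.0757 to 0.154, edgeR). Ssbp1, the mitochondrial single-stranded DNA-binding protein, was lower, at -0.63 ± 0.13.

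At day 6 the members split. Of 8 tested members, 3 were called lower in MIGA2-KO than in WT and none higher, where 60.7% of all genes passed and 31.5% passed downward. mt-Cytb differed by -1.40 ± 0.18 (adjusted p = 1.66e-05, edgeR), mt-Nd4 by -0.88 ± 0.13 (adjusted p = 4.66e-05, edgeR) and mt-Nd6 by -0.75 ± 0.21 (adjusted p = 0.00596, edgeR), and for all 3 the groups did not overlap, as for 31.7% of all genes downward. mt-Nd1 (-0.10 ± 0.13), mt-Nd2 (0.21 ± 0.18), mt-Co1 (-0.12 ± 0.24) and mt-Nd5 (-0.32 ± 0.41) did not pass, and their groups overlapped. The share of members called was below the share of all genes. Without replicate 1 of the libraries labelled MIGA2-KO day 6, mt-Cytb was at -1.64. The same 3 were called, where 60.2% of all genes passed. Without all 3 libraries that stood apart, mt-Nd2, mt-Nd5 and mt-Co1 were called higher in MIGA2-KO, at 0.43, 0.40 and 0.29, and mt-Cytb, mt-Nd4 and mt-Nd6 were called lower, in a fit in which 73.9% of all genes passed. With unscaled library totals, which moved the median of all genes by 0.25, mt-Nd1 and mt-Co1 were at 0.15 and 0.12. mt-Co2 had 11 counts in MIGA2-KO and 21 in WT (ratio 0.472, interval 0.205 to 1.02), mt-Co3 had 8 and 16 (0.45, interval 0.167 to 1.11) and mt-Atp6 had 13 and 20 (0.585, interval 0.268 to 1.24).

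The nuclear-encoded subunits of the complexes were lower in MIGA2-KO at day 6 almost without exception: 36 of 36 for complex I (median -1.64), 9 of 9 for complex III (-1.69), 13 of 13 for complex IV (-1.75) and 13 of 14 for ATP synthase (-1.20). Over all genes 60.7% passed and 31.5% passed downward. The counts of subunits were the same without replicate 1 of the libraries labelled MIGA2-KO day 6, where 60.2% of all genes passed. Over the 7 mitochondrial mRNAs the median was -0.32, beside -0.01 over all genes tested. Whether the nuclear and mitochondrial subunits differ in their change was not tested. Polrmt was lower, at -0.91 ± 0.18, as were Tefm (-0.77 ± 0.16), Polg, the mitochondrial DNA polymerase (-0.77 ± 0.12), and Slirp (-1.14 ± 0.22). Tfam (0.22 ± 0.12) and Lrpprc (0.02 ± 0.09) did not pass. Of 10 regulators of mitochondrial biogenesis tested, 5 were called higher in MIGA2-KO and 2 lower. Ppargc1a, a coactivator that promotes mitochondrial biogenesis, was higher by 2.78 ± 0.35 at 9.646 to 11.04 CPM in MIGA2-KO and 1.072 to 2.169 CPM in WT. Esrra, also on the set list of named genes, was at -1.41 to -0.92 over the fits that left out 1 library. All 12 adipocyte markers were lower in MIGA2-KO (median -2.12), and the part of this in the mitochondrial values was not tested.

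MIGA2-GFP cells had the lowest mt-Nd1 of the day 6 groups and intermediate mt-Nd4. Against WT at day 6, 1 of 8 tested members was called, where 35.3% of all genes passed and 18.9% passed downward: mt-Nd1 was lower by a log2 fold change of -0.57 ± 0.13 (adjusted p = 0.0035, edgeR). mt-Cytb was at -0.26 ± 0.18, mt-Nd4 at -0.33 ± 0.13 (adjusted p = 0.0546, edgeR) and mt-Nd6 at -0.36 ± 0.21. mt-Nd1, mt-Nd4 and mt-Nd6 were lower with no overlap, as were 25.1% of all genes. mt-Nd4 was called without WT day 6 replicate 3 (-0.46, adjusted p = 0.0121, edgeR), and mt-Nd2 was called higher without WT day 6 replicate 1 (0.39, adjusted p = 0.0447, edgeR). Without the 3 libraries that stood apart 5 members were called, with mt-Nd2 (0.39) and mt-Nd5 (0.35) higher and mt-Nd1 (-0.44), mt-Nd4 (-0.22) and mt-Nd6 (-0.41) lower, where 62% of all genes passed. mt-Co2 had 23 counts in MIGA2-GFP and 21 in WT, mt-Co3 had 16 in each and mt-Atp6 had 33 and 20 (ratio 1.48, interval 0.823 to 2.72).

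Against MIGA2-KO at day 6, mt-Cytb was higher in MIGA2-GFP by 1.14 ± 0.18 (adjusted p = 0.000143, edgeR) and mt-Nd4 by 0.55 ± 0.13 (adjusted p = 0.00255, edgeR), while mt-Nd1 was lower by a log2 fold change of -0.48 ± 0.13 (adjusted p = 0.00632, edgeR). These were 2 called higher and 1 lower of 8 tested members, where 47.9% of all genes passed, 25.4% upward and 22.5% downward. By CPM 2 of the 7 were higher with no overlap, as were 35.7% of all genes, and 3 were lower with none, as were 33.4%. mt-Nd2, mt-Co1, mt-Nd5 and mt-Nd6 did not pass, at -0.07 ± 0.18, -0.30 ± 0.24, -0.02 ± 0.41 and 0.39 ± 0.21. Without replicate 1 of the libraries labelled MIGA2-KO day 6, mt-Nd6 (0.58, adjusted p = 0.0392, edgeR) was called higher too. mt-Atp6 was called in that setting on 33 counts in MIGA2-GFP, against 2 and 3 counts in the MIGA2-KO libraries kept. With all libraries it had 33 and 13 counts (ratio 2.52, interval 1.29 to 5.23) and was not called. mt-Co1 was called lower in MIGA2-GFP with only the groups compared (-0.33, adjusted p = 0.00102, edgeR), where 61.7% of all genes passed. Without the 3 libraries that stood apart 6 of 8 were called, where 66.8% of all genes passed. Among them were mt-Co1 (-0.31, adjusted p = 2e-04, edgeR) and mt-Atp6, whose call on those few counts supports nothing. The comparisons with MIGA2-KO and with WT share the MIGA2-GFP libraries and are not independent. Nuclear-encoded subunits were higher in MIGA2-GFP than in MIGA2-KO for 31 of 36 of complex I (median 0.99), 9 of 9 of complex III (1.16), 12 of 13 of complex IV (1.12) and 7 of 14 of ATP synthase (0.57), and lower than in WT for 22 of 36, 5 of 9, 5 of 13 and 8 of 14. Against WT 35.3% of all genes passed and 18.9% passed downward.

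**Figure D3:**
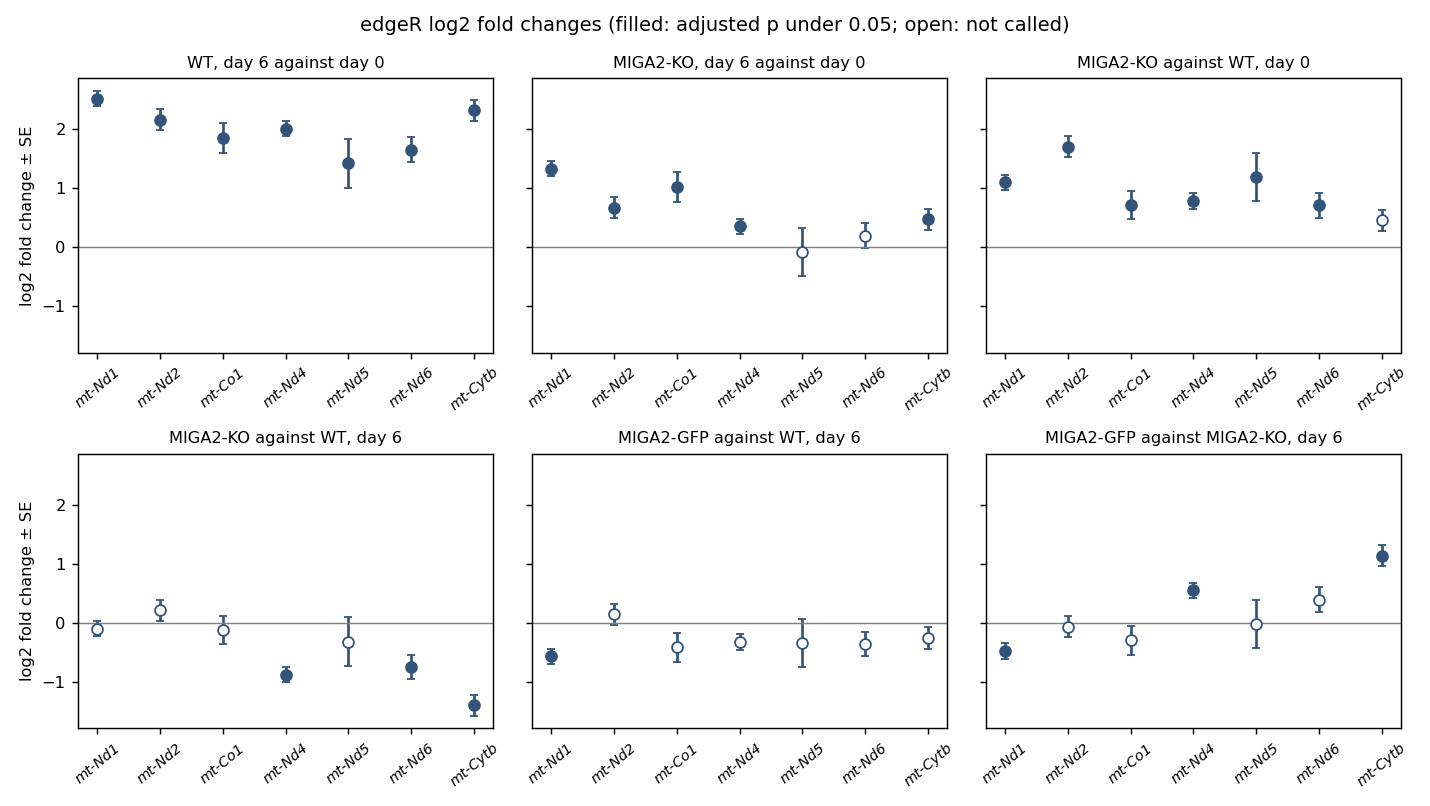
Log2 fold change (y axis) of each of the 7 well-counted mRNAs (x axis) in the 6 comparisons of groups, with bars of 1 SE, filled points for an adjusted p under 0.05 and open points for values that did not pass. In MIGA2-KO against WT at day 6, mt-Nd4, mt-Nd6 and mt-Cytb lie below 0 and the other 4 near it, while all 7 lie above 0 in MIGA2-KO against WT at day 0.

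Ratios between members within a library show the same split. The ratio of mt-Cytb to mt-Nd1 CPM was 1.81, 1.79 and 1.82 in MIGA2-GFP, 0.765, 0.492 and 0.513 in MIGA2-KO and 1.49, 1.63 and 1.24 in WT at day 6. At day 0 it was 1.08, 1.05 and 1.08 in MIGA2-KO and 1.65, 1.86 and 1.54 in WT. Every MIGA2-KO library of either day lay below every WT and MIGA2-GFP library, also without the library labelled replicate 1 at day 6, which lay nearest to WT of its group. Within MIGA2-KO every day 6 library lay below every day 0 library. The ratio of mt-Nd4 to mt-Nd1 was also lowest in MIGA2-KO at day 6, with 0.532, 0.531 and 0.553 in MIGA2-GFP, 0.298, 0.244 and 0.250 in MIGA2-KO and 0.447, 0.522 and 0.403 in WT. These ratios were chosen after the levels were seen and carry no test.

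The ratio of mt-Nd5 to mt-Nd1 was 0.356, 0.355 and 0.361 in MIGA2-GFP libraries. It was lower at day 6 than at day 0 in MIGA2-KO libraries without overlap, with 0.244, 0.263 and 0.275 at day 6 and 0.702, 0.690 and 0.695 at day 0. In WT it was 0.455, 0.230 and 0.184 at day 6 and 0.273, 0.871 and 0.776 at day 0, so the 3 WT libraries of day 0 spanned a wider range than the MIGA2-KO libraries of both days together.

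mt-Nd6 was set against the summed counts of the other 9, since it alone is read from the opposite strand. Per 1000 counts of the others it had 1.53, 1.56 and 1.11 in MIGA2-GFP, 1.35, 0.982 and 1.07 in MIGA2-KO and 1.01, 1.79 and 1.70 in WT at day 6, against 1.57, 1.85 and 1.77 in MIGA2-KO and 2.70, 2.35 and 1.11 in WT at day 0. It was lower in every MIGA2-KO library at day 6 than in every one at day 0, by a log2 ratio of -0.62 (two-sided exact permutation test, p = 0.1, the smallest that 3 against 3 libraries can give). The day 6 to day 0 log2 ratio in WT was -0.40 with overlap (p = 0.5, exact permutation test). The other 4 comparisons gave -0.37 for MIGA2-KO against WT at day 6, -0.15 for MIGA2-KO against WT at day 0, -0.07 for MIGA2-GFP against WT and 0.30 for MIGA2-GFP against MIGA2-KO, with exact permutation p of 0.3, 0.8, 0.7 and 0.2.

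**Figure D4:**
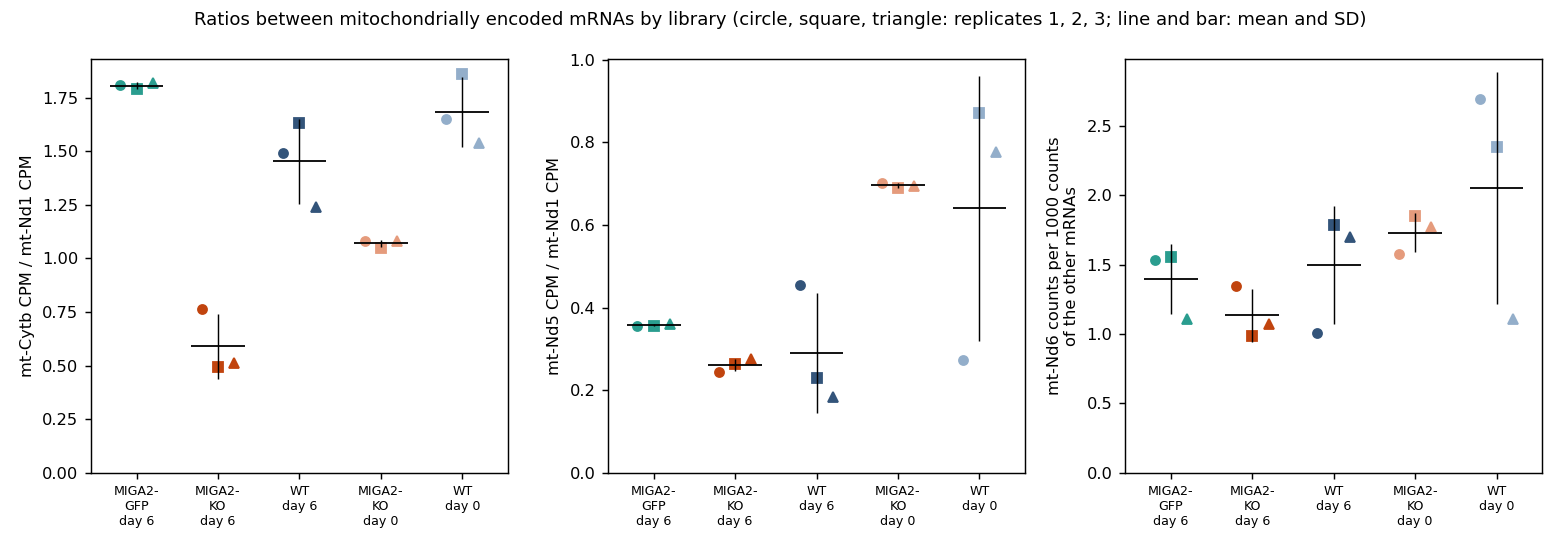
Ratios within each library (1 point per library, line at the mean, bar of 1 SD for 3 libraries) of mt-Cytb to mt-Nd1 CPM, of mt-Nd5 to mt-Nd1 CPM, and of mt-Nd6 counts per 1000 counts of the other mitochondrial mRNAs. In the first panel MIGA2-KO libraries reach at most 1.08 and all others at least 1.24; in the second the WT points at day 0 run from 0.273 to 0.871.

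In the make-up of the mitochondrial mRNA pool, which restates the same counts as percentages, mt-Cytb set MIGA2-KO apart and mt-Nd2 set WT apart. mt-Cytb made up 30.9 ± 0.086% of the summed counts in MIGA2-GFP, 14.9 ± 3.2% in MIGA2-KO and 29.7 ± 3.0% in WT at day 6, and 18.8 ± 0.13% in MIGA2-KO and 25.7 ± 3.4% in WT at day 0 (SD, n = 3 each). mt-Co1 made up 25.5 ± 0.23% in MIGA2-GFP, 33.8 ± 2.1% in MIGA2-KO and 26.5 ± 3.7% in WT at day 6. mt-Nd1 made up 17.1 ± 0.17% in MIGA2-GFP, 25.5 ± 0.98% in MIGA2-KO and 20.6 ± 2.8% in WT at day 6. mt-Nd2 made up 11 ± 0.074% in MIGA2-GFP, 12.3 ± 0.18% in MIGA2-KO and 7.91 ± 0.48% in WT at day 6, and 13.4 ± 0.099% in MIGA2-KO and 7.57 ± 0.11% in WT at day 0. mt-Nd2 took a larger part in every MIGA2-GFP and MIGA2-KO library, at 10.9 to 13.5%, than in any of the 6 WT libraries, at 7.42 to 8.38%. mt-Nd5 took 6.11 to 6.12% in MIGA2-GFP, 5.97 to 12.3% in MIGA2-KO and 4.34 to 11.6% in WT libraries.

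**Figure D5:**
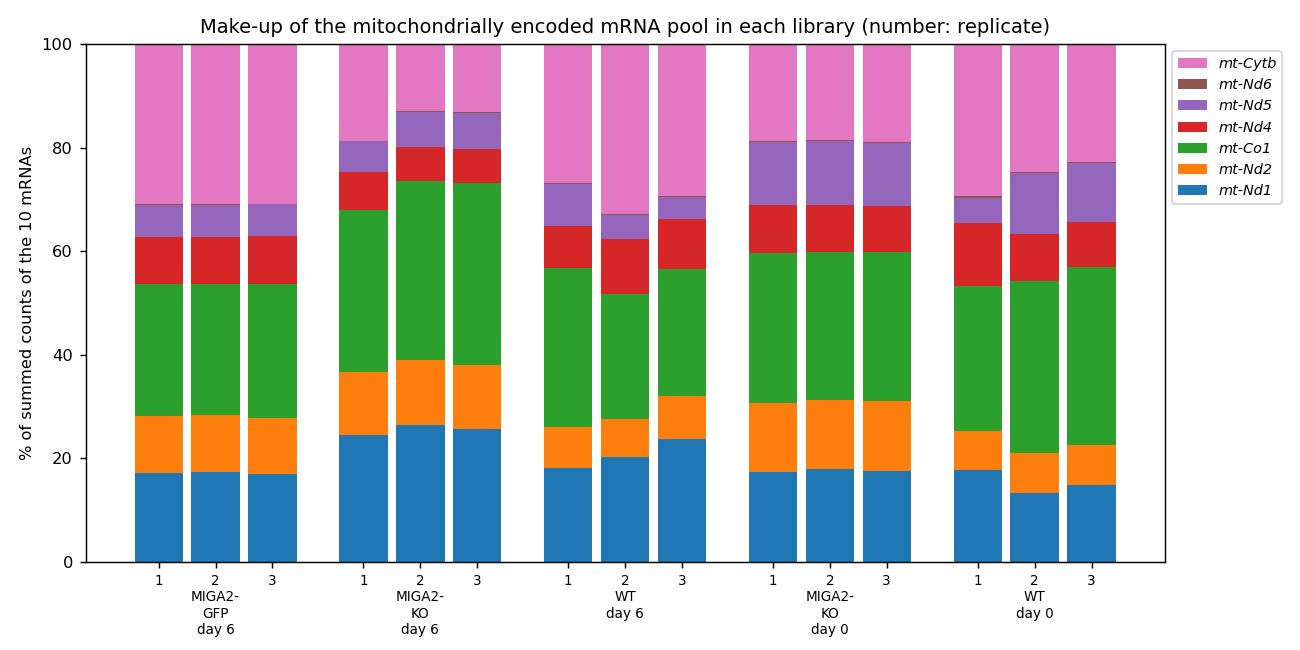
Percentage of the summed counts of the 10 mitochondrial mRNAs taken by each of the 7 well-counted ones (y axis, stacked) in each of the 15 libraries (x axis). mt-Cytb takes 13.0 to 18.9% in MIGA2-KO libraries and 22.8 to 32.9% in the others, and mt-Nd2 takes 10.9 to 13.5% in MIGA2-GFP and MIGA2-KO libraries and 7.42 to 8.38% in WT libraries.

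Across the 15 libraries, the nuclear genes whose log2 CPM followed the mean of the 7 mRNAs most closely, among 12253 ranked, were Fastkd1 (Pearson's r of 0.977), Pcyox1 (0.974), Exd1 (0.966), Ubqln1 (0.965) and Ywhag (0.965). The r describes likeness over libraries that share 5 groups and carries no test. Fastkd1 was one of the RNA processing factors that were higher in MIGA2-KO than in WT at day 0.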

How the data were processed

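Each of the 15 libraries came as a file of read counts per gene, whole numbers with no normalization, made by the authors before deposit. Per the submitters' processing notes, the tools included bcl2fastq 2.19, Trimmomatic, STAR 2.5.4b, featureCounts and edgeR, with genome build GRCm38.p5; the labels give no role or setting for them, and the handling of reads with several matches was not stated. Whether such reads were dropped bears directly on mt-Co2, mt-Co3, mt-Atp6, mt-Nd4 and mt-Co1.

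Counts were fitted with edgeR 4.0.16 in R 4.3.3 (limma 3.58.1): quasi-likelihood test, 1 coefficient per group over all 15 libraries, TMM scaling, genes kept by filterByExpr with a minimum count of 10 and a total of 15 (12279 of 25700), and Benjamini-Hochberg adjustment with a threshold of 0.05. Within-group variation was 16% (common biological coefficient of variation). Each gene had 1 estimate of spread shared by the 5 groups, although the groups spread unequally. For mt-Nd5 the SD was 23.6 CPM in MIGA2-GFP, 214 CPM in MIGA2-KO and 4330 CPM in WT at day 6. An SE or p-value from this fit in a comparison without WT therefore also carries the spread of WT libraries. Each SE is |log2 fold change| over the square root of that gene's F. The pipeline was tested on simulated counts. A symbol was found for 25587 of 25700 identifiers. Ratios of low counts carry exact 95% intervals for counting error. The mt-Nd6 ratio and share of library used values per library. Sequences and annotated copies come from GENCODE vM21 transcripts (GRCm38).

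The 10 genes, the gene lists, the ratios and the libraries left out were chosen with earlier results of these data known. Nuclear genes named are a set list of transcription, stability and biogenesis factors, and for each list the 2 with the smallest adjusted p in a comparison. Alternatives were DESeq2 1.42.0, other scalings and filters, a replicate block, GC and length correction, and leaving out libraries. Replicate numbers are labels only: same-numbered libraries correlated at -0.642 to 0.088 in their deviations from group means and were not paired.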

Additional observations from a re-analysis of the deposited data

Results flagged for a closer look

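The change from day 0 to day 6 differed between MIGA2-KO and WT cells for 5 of the 8 tested members, by edgeR's interaction term. All 5 are among the 7 well-counted mRNAs. Over all genes 27.2% passed in this term and 13.6% passed downward. On the log2 scale the difference, MIGA2-KO minus WT, was -1.19 for mt-Nd1, -1.49 for mt-Nd2, -1.67 for mt-Nd4, -1.46 for mt-Nd6 and -1.85 for mt-Cytb. For mt-Nd1 and mt-Nd2 the lines were apart at day 0 and not at day 6, whereas mt-Nd4 and mt-Nd6 were higher in MIGA2-KO at day 0 and lower at day 6. mt-Cytb was lower in MIGA2-KO at day 6 and did not pass at day 0. Adipocyte markers also differed between the lines at day 6, and their part in these values was not tested.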

How the results depend on the processing

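All 5 interaction calls kept their direction and side of the threshold under every alternative run for them. Counts of called mitochondrial mRNAs depended on the libraries kept. Replicate 1 of WT at both days and of MIGA2-KO at day 6 stood apart. Without these libraries 6 were called in MIGA2-KO against WT at day 6, beside 73.9% of all genes. In MIGA2-GFP against WT 5 were called, beside 62%. In MIGA2-GFP against MIGA2-KO 6 were called, beside 66.8%, and these include mt-Atp6 on few counts. The log2 ratio of the WT share over time was 1.24 in this setting. In the same setting mt-Co1 (0.29) and mt-Nd5 (0.40) in the day 6 comparison of MIGA2-KO with WT and mt-Nd5 (0.35) in MIGA2-GFP against WT turned to higher, and Miga2 turned to -1.24 in MIGA2-KO against WT at day 6, 1.15 in MIGA2-GFP against MIGA2-KO and -1.61 in the interaction; the cause was not tested. MIGA2-GFP against WT gave 2 calls with RLE scaling, a minimum count of 50, DESeq2 and GC and length correction (chosen after seeing the data), beside 35.4, 38.2, 37.8 and 48.3% of all genes. MIGA2-KO over time gave 3 with unscaled totals, beside 43.9% of all genes. Under those totals Tfam in WT over time was at -0.31. Unscaled totals moved the median of all genes by -0.39 in WT over time, -0.12 in MIGA2-KO against WT at day 0, 0.25 in the same pair at day 6, 0.18 in MIGA2-GFP against WT and 0.37 in the interaction. With the replicate block, where replicate numbers were treated as pairing, MIGA2-KO over time also gave 3, beside 41% of all genes. With that block MIGA2-KO against WT at day 0 gave 4, beside 28.5%, and no count in another comparison changed. Against mt-Nd5 and mt-Cytb alone, the log2 mt-Nd6 ratio was -0.49 in MIGA2-GFP against MIGA2-KO, and in MIGA2-KO against WT it was 0.35 for day 6 and 0.03 for day 0.

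Leaving out 1 library at a time gave 3 to 5 called in MIGA2-GFP against MIGA2-KO, beside 37.8 to 48.6% of all genes. The 5 include mt-Atp6 on few counts. In MIGA2-GFP against WT 1 to 2 were called, beside 22.5 to 44%. The counts were 3 to 6 in MIGA2-KO against WT at day 0, beside 22.9 to 38.2%. They were 3 to 5 in MIGA2-KO over time, beside 36.8 to 39.8%. For Miga2, leaving out 1 library gave -1.65 to 1.15 in MIGA2-GFP against MIGA2-KO and -1.17 to 1.62 in MIGA2-KO against WT at day 6. In the interaction it gave -1.55 to 1.24. The mt-Nd6 ratio ran over -0.33 to 0.09 in MIGA2-GFP against WT and -0.54 to 0.10 in MIGA2-KO against WT at day 0. Signs of uncalled values changed in 7 combinations of a result and a setting for the mitochondrial mRNAs and in 57 for other named genes. Adding counts of nuclear copies was not run, since those counts were not analysed here. Counts of 0 to 12 per library limit mt-Co2, mt-Co3 and mt-Atp6.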
